A study of Mus musculus with 10 samples.

Results

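The Hox genes were read from the RNA-seq of mouse embryonic stem cells (ESCs), parthenogenetic ESCs (pESCs), the primordial germ cell-like cells induced from each (ESC-PGCLCs and pESC-PGCLCs) and primordial germ cells (PGCs). They were chosen by name alone, as every symbol made of Hox, a cluster letter from a to d and a number. The table held 35 of them among 36066 genes, 9 each in clusters a, b and c and 8 in cluster d. GENCODE M21 annotates 39 such genes, and the other 4 (Hoxa6, Hoxa11, Hoxb1 and Hoxd12) were not analysed here. Each of the 5 groups had 2 libraries, which the methods call biological replicates, without saying whether a group came from more than 1 line or litter. If it did not, p-values measure only the spread between these libraries. All groups are labelled as strain C57BL6. The ESCs were female and came from fertilized embryos. The pESCs came from strontium-activated oocytes, so that their chromosomes are maternal alone. The methods derive both from Actin-GFP mice, and both grew on mouse embryonic fibroblast feeders. Before PGCLC induction the cells passed through an epiblast-like stage in bFGF and Activin A. The PGCLCs formed over 4 days with 500 ng/mL BMP4, SCF, EGF and LIF and were sorted on the surface markers CD61 and SSEA1. PGCs were sorted from the gonads of female embryos with the same markers or with SSEA1 beads. The methods describe PGCs of 2 embryonic days, and the labels of these libraries give no embryonic day.

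Hox genes encode homeodomain transcription factors that give cells their position along the body axis. Vertebrates carry them in 4 clusters, in which genes of like number in different clusters (paralogs) descend from 1 ancestral gene, and low numbers lie at the end that is switched on earliest and farthest forward in the embryo. In ESCs the clusters are known as regions held silent by Polycomb proteins, and in the embryo mouse PGC precursors are known to repress Hox genes that neighbouring mesoderm switches on. In GRCm38, cluster a lay on chromosome 6, on the minus strand, cluster b on chromosome 11 from 96194316 to 96354012, cluster c on chromosome 15 from 102921103 to 103036852, and cluster d on chromosome 2 from 74668310 to 74765142. These spans run from the first to the last gene in the table.

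The depth was 6779838 to 18572901 reads on genes per library, lowest in both ESC-PGCLC libraries, and the largest Hox gene total over all 10 libraries was 465 reads. Reads were recovered from the TPM values (a level per unit of exon length with an equal total for all libraries). The germ cell label of both kinds of PGCLC was checked with 10 germ cell markers, whose summed level was 7750 to 8000 TPM in ESC-PGCLCs and 6134 to 6492 TPM in pESC-PGCLCs against 408 to 932 TPM in the stem cells. The same libraries, though labelled as cells induced in culture and sorted, also held transcripts of gonadal and mesonephric somatic cells. The summed level of 11 such markers was 3.86 to 4.77 TPM in the stem cells, 25.4 to 30.2 TPM in ESC-PGCLCs, 44.6 to 52.2 TPM in pESC-PGCLCs and 87.1 to 96.4 TPM in PGCs. None of the 11 was at 0 in both libraries of pESC-PGCLCs or of PGCs. Lhx9, a transcription factor of the early gonad, was at 6.20 and 7.48 TPM in ESC-PGCLCs and at 16.3 and 19.1 TPM in PGCs. The 7 blood markers, haemoglobins included, summed to 1.21 to 3.88 TPM in the stem cells, 404 to 464 TPM in ESC-PGCLCs, 2121 to 2638 TPM in pESC-PGCLCs and 1592 to 1789 TPM in PGCs. Of these 7, 2 were at 0 in both ESC-PGCLC libraries.

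**Figure D1:**
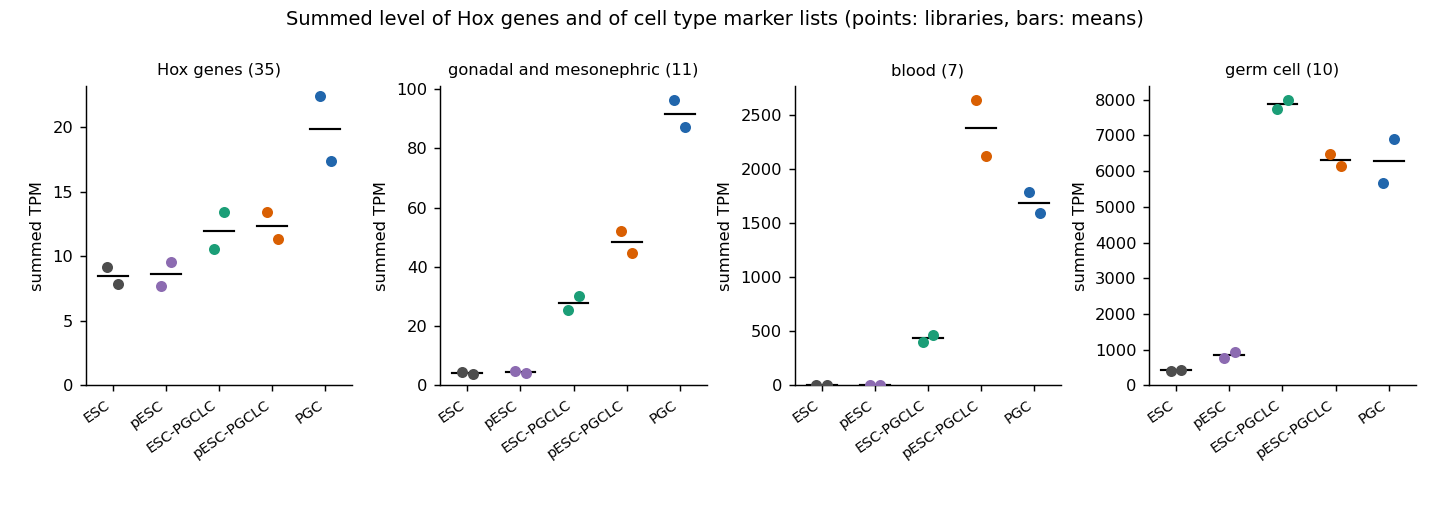
Summed level in TPM (linear axes) of the 35 Hox genes and of the marker lists for gonadal and mesonephric somatic cells, blood and germ cells; each point is a library and each bar a group mean (n = 2). The Hox sum is 7.68 to 9.54 TPM in the stem cells and 17.4 to 22.4 TPM in PGCs, and the gonadal and blood markers are also lowest in the stem cells.

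Hox transcripts were scarce in every group. Of the 35 genes, 26 stayed below 1 TPM in all 10 libraries, and the highest single value was 4.97 TPM, of Hoxc13 in a pESC library. The median Hox gene stood at 0.0388 TPM in ESCs and 0.0442 TPM in pESCs, at 0.165 TPM in ESC-PGCLCs and 0.194 TPM in pESC-PGCLCs, and at 0.358 TPM in PGCs, where the median over all genes of the table was 0.239, 0.230, 0.328, 0.418 and 0.537 TPM in the same order. The number of genes with reads in both libraries of a group was 22 in ESCs, 17 in pESCs, 15 in ESC-PGCLCs, 28 in pESC-PGCLCs and 27 in PGCs. These counts move with depth, since 3 reads on a Hox gene stood for 0.042 to 0.715 TPM depending on the gene and library. Such floors cover counting error alone. Hoxb8, Hoxc11 and Hoxd11, of which the last is known in limb and kidney development, never held more than 1 read in a library. In bulk RNA, fewer cells expressing a gene and less RNA per cell cannot be told apart.

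**Figure D2:**
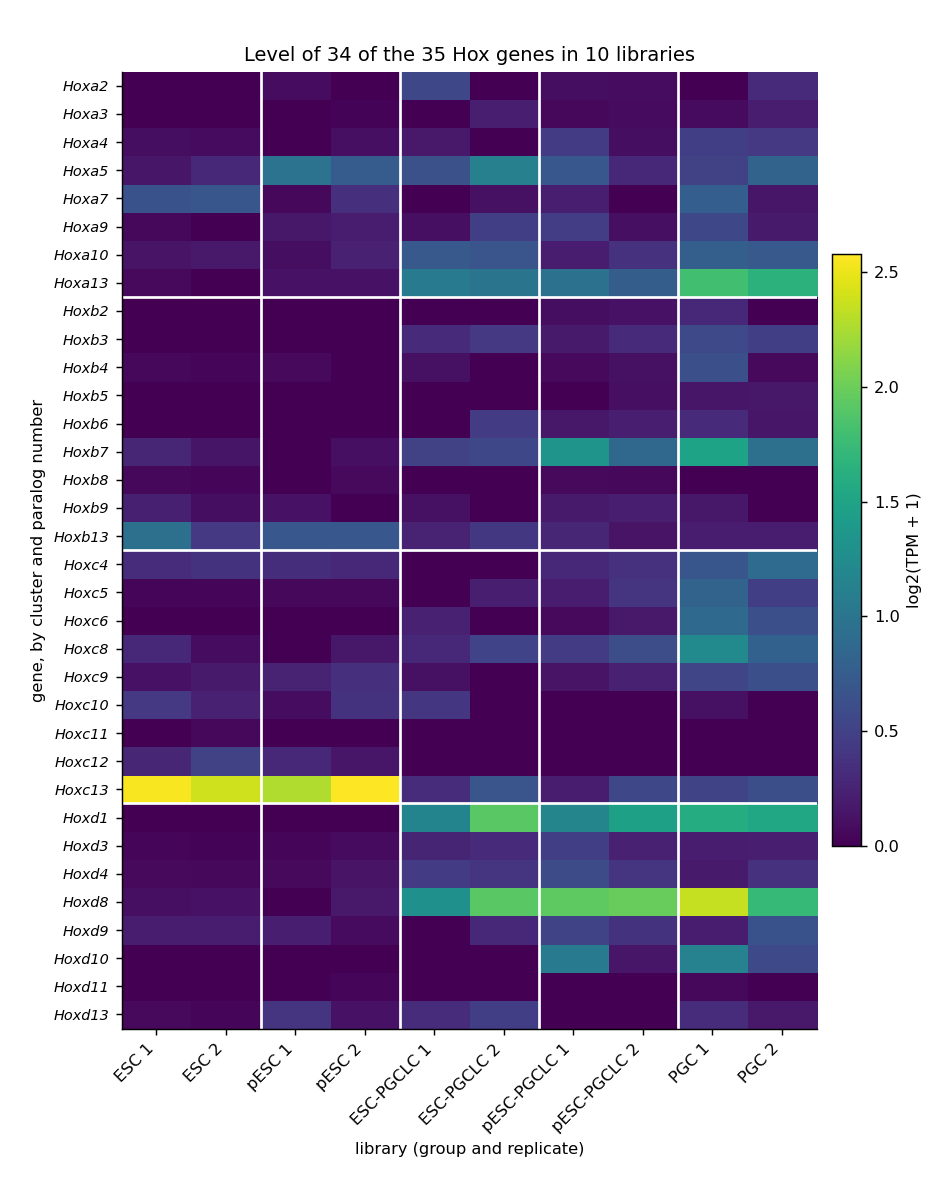
Level of 34 of the 35 Hox genes as log2(TPM + 1) (colour) in the 10 libraries, with rows ordered by cluster and paralog number and white lines between clusters and groups. Hoxc13 is the bright row in the 4 stem cell libraries, and Hoxd8, Hoxd1 and Hoxa13 are the brighter rows in PGCLCs and PGCs.

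In the stem cells, Hoxc13 alone made up 53.5% of the summed Hox level in ESCs and 51.2% in pESCs. Hoxc13 is known for its role in hair and nail formation and lies at the 5' end of cluster c, on chromosome 15 from 102921103 to 102928814. Its level was 4.85 and 4.24 TPM in ESCs (110 and 124 reads) and 3.84 and 4.97 TPM in pESCs (83 and 106 reads). The 2 groups overlapped. Other genes were far lower. Among the highest of them in ESCs were Hoxb13 at 0.639 ± 0.418 TPM (SD, n = 2), Hoxa7 at 0.590 ± 0.034 TPM and Hoxc12 at 0.309 ± 0.14 TPM. In pESCs they included Hoxa5 at 0.823 ± 0.208 TPM, Hoxb13 at 0.623 ± 0.0061 TPM and Hoxc4 at 0.245 ± 0.029 TPM. Hoxd1, of the 3' paralog group known to be activated first, had no read in any of the 4 stem cell libraries, which allows a level of up to 0.175 TPM in ESCs and 0.186 TPM in pESCs.

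The first comparison asks whether stem cells with only maternal chromosomes differ from those of fertilized embryos. Levels were compared as log2(TPM + 1) with limma, with variances from all 10 libraries, over 27259 genes that reached 0.1 TPM in 2 or more libraries. A gene was called if its Benjamini-Hochberg adjusted p was under 0.05 and its change 2-fold or more. The filter left 30 Hox genes and dropped Hoxb2, Hoxb4, Hoxb8, Hoxc11 and Hoxd11. Between pESCs and ESCs, limma called 0 of the 30 Hox genes, where it called 0.781% of all genes tested. At an unadjusted p under 0.05 there was 1, and 0 were called by voom on the recovered reads, beside 1.69% of all genes. That 1 was Hoxa5, a regulator of lung and axial skeleton development, at 0.116 and 0.224 TPM in ESCs (2 and 5 reads) and 0.970 and 0.676 TPM in pESCs (16 and 11 reads). Both pESC libraries lay above both ESC libraries, with a log2 fold change of 0.64 (SE, the standard error, 0.222, limma adjusted p = 0.180). Hoxa7 was at 0.566 and 0.614 TPM in ESCs and at 0.0396 and 0.281 TPM in pESCs (1 and 7 reads), also without overlap, and its difference did not pass the test. With 2 libraries against 2, the smallest p of an exact permutation test is 0.333, and all p-values here rest on limma's variance model. Shares of all genes at an unadjusted p under 0.05 were not counted, here or in the comparisons below.

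When stem cells became PGCLCs, Hoxc13 fell and Hoxd8 and Hoxd1 rose in both origins, while Hoxa13 was called higher only from ESCs and Hoxb7 only from pESCs. In ESC-PGCLCs against ESCs limma called 4 of the 30 Hox genes, 3 higher and 1 lower, beside 29.8% of all genes. In pESC-PGCLCs against pESCs it also called 4, 3 higher and 1 lower, beside 27.6% of all genes. The share of Hox genes called was below that of all genes in both under this rule. Because the pseudocount of 1 TPM is larger than most Hox levels, these fold changes understate low genes. With a pseudocount of 0.1 TPM, 13 of the 30 were called in each comparison, beside 44.1% of all genes from ESCs and 41.4% from pESCs. Voom on the recovered reads called 17 from ESCs, beside 45.4% of all genes, and 14 from pESCs, beside 41.8%.

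Hoxc13 was at 0.256 and 0.599 TPM in ESC-PGCLCs (3 and 6 reads) and at 0.143 and 0.475 TPM in pESC-PGCLCs (3 and 11 reads). All 4 PGCLC libraries lay below all 4 stem cell libraries. The log2 fold change was -1.97 from ESCs (SE 0.215, limma adjusted p = 0.000173) and -2.05 from pESCs (SE 0.215, limma adjusted p = 0.000178). By the ratio of recovered reads per depth, Hoxc13 was 10.9-fold lower in ESC-PGCLCs (95% exact interval 5.63 to 24.1) and 13.9-fold lower in pESC-PGCLCs (8.06 to 25.8), with intervals that cover counting error alone.

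Hoxd8, a gene of the middle of cluster d with a role in axial patterning, lies on chromosome 2 from 74704615 to 74707933. It was at 0.0791 and 0.0920 TPM in ESCs (2 and 3 reads) and at 0 and 0.126 TPM in pESCs (0 and 3 reads). In ESC-PGCLCs it reached 1.46 and 2.78 TPM (19 and 31 reads), a log2 fold change of 1.49 (SE 0.270, limma adjusted p = 0.00251). In pESC-PGCLCs it reached 2.82 and 2.94 TPM (66 and 76 reads), a log2 fold change of 1.87 (SE 0.270, limma adjusted p = 0.000863). No stem cell library came near any PGCLC library, and Hoxd8 had the highest group mean of the Hox genes in both kinds of PGCLC and in PGCs. In ESC-PGCLCs its mean lay close to that of Hoxd1 (2.12 and 2.01 TPM), with overlapping libraries, and it was not the highest in replicate 1.

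Hoxd1, at the 3' end of the same cluster on chromosome 2 from 74762980 to 74765142, went from no read in the stem cells to 1.24 and 2.77 TPM in ESC-PGCLCs (11 and 21 reads) and 1.26 and 1.77 TPM in pESC-PGCLCs (20 and 31 reads). Set against the larger floor of 3 reads in 1 library of the stem cell group, its mean level was at least 11.5-fold higher in ESC-PGCLCs than in ESCs and at least 8.15-fold higher in pESC-PGCLCs than in pESCs. The log2 fold changes were 1.54 from ESCs (SE 0.243, limma adjusted p = 0.0012) and 1.32 from pESCs (SE 0.243, limma adjusted p = 0.00288). These fitted values depend on the pseudocount. After centring of the log2 values on the library median, Hoxd1 was not called from pESCs (log2 fold change 0.59, limma adjusted p = 0.0568).

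Hoxa13, which with Hoxd13 patterns the digits and the end of the urogenital tract, lies on chromosome 6 from 52257694 to 52260880. It had 0 to 2 reads in each stem cell library. In ESC-PGCLCs it was at 1.11 and 0.994 TPM (13 and 10 reads), with a log2 fold change of 1.00 (SE 0.141, limma adjusted p = 0.000655). In pESC-PGCLCs it was at 0.950 and 0.688 TPM (20 and 16 reads), with a log2 fold change of 0.73 (limma adjusted p = 0.00369), under the 2-fold minimum on this scale. After centring of the log2 values the change from pESCs was 0.0011 (limma adjusted p = 0.996). The call from ESCs was at that minimum too, since the log2 fold change was 0.97 without ESC replicate 2 and 0.96 without ESC-PGCLC replicate 1. The test of the difference between the origins gave a log2 value of -0.27 (limma adjusted p = 0.393).

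Hoxb7, a mid-cluster gene on chromosome 11 from 96286623 to 96290162, was at 0 and 0.0747 TPM in pESCs (0 and 1 read) and at 1.52 and 0.826 TPM in pESC-PGCLCs (20 and 12 reads). Its log2 fold change was 1.05 (SE 0.219, limma adjusted p = 0.00539). On the other side it was at 0.211 and 0.109 TPM in ESCs and at 0.408 and 0.477 TPM in ESC-PGCLCs (3 reads each), and the test of the difference between the origins gave a log2 value of 0.73 (limma adjusted p = 0.136). The call from pESCs was lost with log2 fold changes of 1.00 without pESC replicate 1, 0.82 without pESC-PGCLC replicate 1, 0.87 after quantile normalization, 0.91 after scaling of each library to a common median and 0.32 after centring of the log2 values. None of Hoxc13, Hoxd8, Hoxd1, Hoxa13 and Hoxb7 shares exon bases with another annotated gene.

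**Figure D3:**
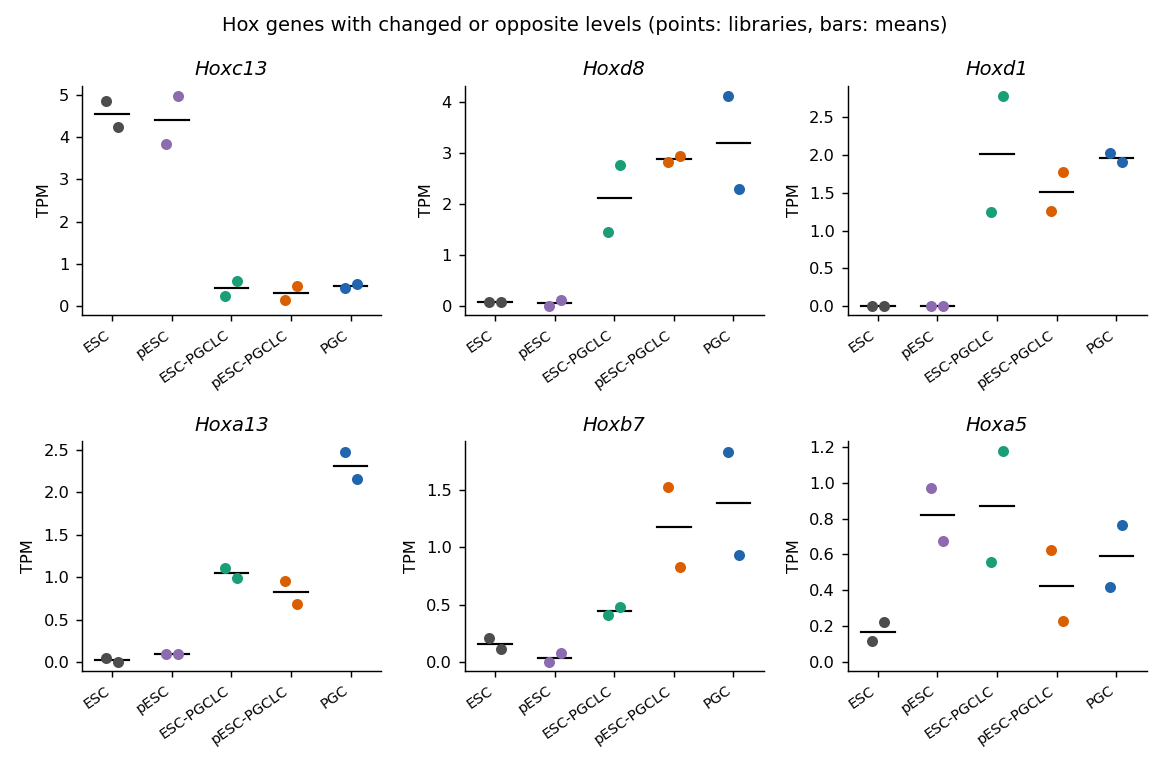
Level in TPM (linear axes, a different range in each panel) of 6 Hox genes in the 5 groups; points are the 2 libraries of a group and bars their mean. Hoxc13 is near 4.5 TPM in both kinds of stem cell and under 0.6 TPM in every other library, and Hoxd1 is at 0 in all 4 stem cell libraries.

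The 250 bases upstream of the transcription start are shown for the 3 genes that rose from ESCs, and for Hoxb8, which stayed at 1 read or none in every library, as a contrast. Sequences are those of RefSeq on GRCm38.p6, written 5' to 3' on the strand of the gene, from chr2:74704365-74704614 (Hoxd8), chr2:74762730-74762979 (Hoxd1), chr6:52260881-52261130 (Hoxa13, minus strand) and chr11:96281655-96281904 (Hoxb8). Capitals mark matches on either strand to the letters GGGCGG of the GC box, to CCAAT, to the letters TATAAA of the TATA box, to the letters CACGTG of an E-box and to the letters TTTATG at the core of sites for Cdx factors.
Hoxd8: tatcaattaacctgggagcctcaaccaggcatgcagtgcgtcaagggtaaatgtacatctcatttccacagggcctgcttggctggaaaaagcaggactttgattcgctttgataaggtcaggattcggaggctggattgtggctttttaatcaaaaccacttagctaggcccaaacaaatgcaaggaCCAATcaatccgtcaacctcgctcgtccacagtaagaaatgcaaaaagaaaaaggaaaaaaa
Hoxd1: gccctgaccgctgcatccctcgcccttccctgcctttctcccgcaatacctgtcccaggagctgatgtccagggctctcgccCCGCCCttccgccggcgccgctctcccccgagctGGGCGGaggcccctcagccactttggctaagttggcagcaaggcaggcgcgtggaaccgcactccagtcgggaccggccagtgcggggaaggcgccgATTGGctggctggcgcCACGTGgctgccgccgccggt
Hoxa13: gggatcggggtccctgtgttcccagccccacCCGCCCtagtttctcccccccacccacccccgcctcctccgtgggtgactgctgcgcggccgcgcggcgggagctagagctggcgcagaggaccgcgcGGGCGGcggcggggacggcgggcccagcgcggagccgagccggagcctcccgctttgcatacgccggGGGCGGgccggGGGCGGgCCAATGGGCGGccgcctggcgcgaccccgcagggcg
Hoxb8: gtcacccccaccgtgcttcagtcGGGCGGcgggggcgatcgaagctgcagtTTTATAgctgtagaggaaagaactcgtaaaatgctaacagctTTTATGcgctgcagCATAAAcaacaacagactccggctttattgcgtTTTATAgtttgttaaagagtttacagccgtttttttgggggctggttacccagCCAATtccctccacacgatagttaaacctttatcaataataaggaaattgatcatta
The 3 windows of the genes that rose each held 1 CCAAT box, as did that of Hoxb8, and differed in CpG, GC content and GC boxes. That of Hoxd8 was poor in CpG (6 CpG, 44.4% GC) and held 1 CCAAT box, while that of Hoxd1 had 24 CpG and 71.6% GC with 2 GC boxes, 1 CCAAT box and 1 E-box, and that of Hoxa13 had 35 CpG and 80% GC with 5 GC boxes and 1 CCAAT box, which abuts the last of them. Hoxb8 had 12 CpG, 1 GC box, 1 CCAAT box, 2 TATA boxes and 2 Cdx cores. Over all 32851 windows of this length, a GC box was found in 32.7%, a CCAAT box in 33.8%, a TATA box in 12.4%, the E-box in 6.02% and the Cdx core in 10.8%, and the median window held 6 CpG. RefSeq windows matched 18 of the 35 Hox genes (20 windows), with a median of 12.5 CpG and a range from 2 to 35. Of these windows 55% held a CCAAT box. Hoxc13 had no window in the table. A match of letters is a description of the sequence and says nothing of binding.

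**Figure D4:**
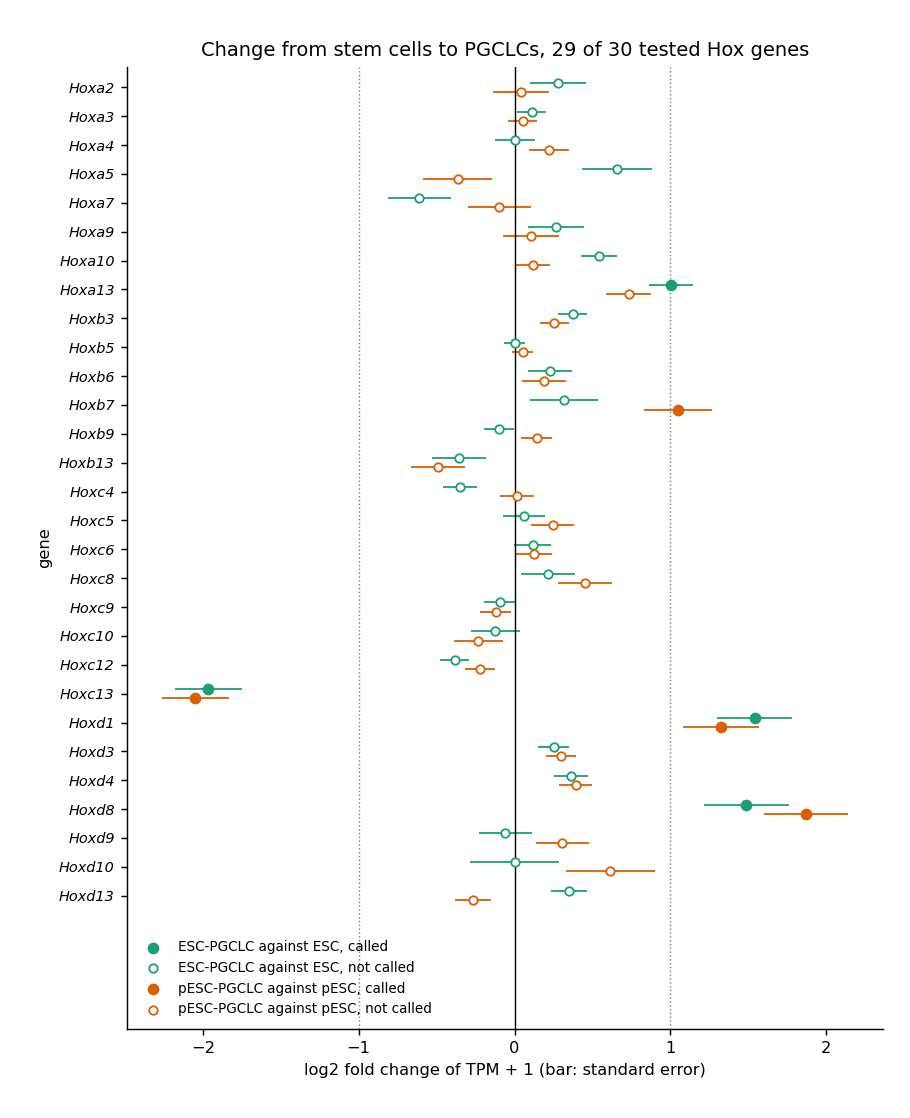
Log2 fold change of TPM + 1 from stem cells to PGCLCs for 29 of the 30 tested Hox genes, from ESCs (green) and from pESCs (orange); filled points were called, bars are standard errors, and dotted lines mark a 2-fold change. Hoxc13 is near -2 in both origins and Hoxd1 and Hoxd8 lie between 1.32 and 1.87.

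Several other Hox genes passed the test with a change under the 2-fold minimum on the log2(TPM + 1) scale. Without that minimum, 12 of the 30 passed from ESCs, beside 46.4% of all genes, and 8 from pESCs, beside 44.6%, at an adjusted p under 0.05 by limma. From ESCs, the added genes with higher values were Hoxa5, Hoxa10, Hoxb3, Hoxd4 and Hoxd13, and those with lower values were Hoxa7, Hoxc4 and Hoxc12. By the ratio of mean TPM, Hoxa5 was 5.12-fold and Hoxa10 5.45-fold higher. Hoxc4 and Hoxc12 had no read in ESC-PGCLCs. The floor of 3 reads in the shallower of these libraries, 0.287 and 0.715 TPM, lay above their means of 0.274 and 0.309 TPM in ESCs. That floor therefore gives no lower bound on their fall. Both were called lower with a pseudocount of 0.1 TPM, and Hoxc4 also by voom. After centring of the log2 values Hoxa7, Hoxa10 and Hoxb3 still passed from ESCs and the other 5 did not. From pESCs, Hoxa13, Hoxd3 and Hoxd4 passed as higher and Hoxb13 as lower. Hoxd3 and Hoxd4 did not pass after quantile normalization or scaling to a common median, and after centring of the log2 values they turned to -0.43 (limma adjusted p = 0.0213) and -0.34 (limma adjusted p = 0.0705). Hoxc12, the neighbour of Hoxc13, had 1 to 5 reads in each stem cell library and none in any PGCLC or PGC library. Hoxc10 had no read in pESC-PGCLCs and 3 and 0 reads in ESC-PGCLCs. Hoxb3, known for hindbrain patterning, had no read in the stem cells and 5 to 15 reads in each other library, but 52.9% of its exon bases overlap Hoxb3os on the other strand, and nothing in the sources used here says that reads were assigned by strand. Likewise 62.8% of the exon bases of Hoxd3 and 52.3% of those of Hoxd4 are shared, with each other, with Gm28230 and with Hoxd3os1 on the other strand, so their reads cannot be ascribed to either gene. Over the 30 genes the median log2 fold change was 0.17 from ESCs and 0.12 from pESCs, where that of all genes tested was 0.05 and 0.22. Centring of the log2 values moved the median of all genes to 0.06 and -0.51, and from pESCs it gave 1 Hox gene called higher (Hoxd8) and 3 lower (Hoxa5, Hoxb13 and Hoxc13) in place of 3 and 1. Calls over all genes after this centring were not counted by direction. This centring also lowers or raises every gene listed at 0.

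Counted over all 35 genes, both PGCLC libraries lay above both ESC libraries for 12 Hox genes and below for 7, where the shares over all genes were 29.7% and 25.3%. From pESCs the counts were 17 above and 7 below, with 38.8% and 14.98% over all genes.

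By cluster, c had the highest sum in every stem cell library, mainly through Hoxc13, and d had the highest group mean in both kinds of PGCLC. The mean summed level of cluster c was 5.70 ± 0.44 TPM in ESCs and 5.33 ± 1.02 TPM in pESCs (SD, n = 2), 1.13 and 1.47 TPM in ESC-PGCLCs and pESC-PGCLCs, and 4.08 TPM in PGCs. Cluster d stood at 0.344 and 0.506 TPM in the 2 kinds of stem cell and at 5.12 ± 2.27, 6.07 ± 0.63 and 6.95 ± 1.57 TPM in ESC-PGCLCs, pESC-PGCLCs and PGCs. In ESC-PGCLC replicate 1 it was at 3.51 TPM, below cluster a at 4.95 TPM. In clusters c and d no stem cell library overlapped a PGCLC library, also after scaling to a common median. The cluster c sums include Hoxc13, at 4.55 TPM in ESCs and 4.40 TPM in pESCs against 0.428 and 0.309 TPM in ESC-PGCLCs and pESC-PGCLCs. Cluster c was not summed without Hoxc13. The median over its 9 genes was 0.211 and 0.138 TPM in ESCs and 0.0865 and 0 TPM in ESC-PGCLCs. On the parthenogenetic side this median was 0.0596 and 0.122 TPM in pESCs and 0.0966 and 0.175 TPM in pESC-PGCLCs, with overlapping libraries. The fall of the cluster c sum is therefore not shown for its other genes. Within cluster d, Hoxd8 and Hoxd1 had the highest levels in both kinds of PGCLC. Hoxd9 and Hoxd10, beside Hoxd8, were at no more than 0.230 TPM in ESC-PGCLCs, Hoxd9 at 0.440 and 0.299 TPM and Hoxd10 at 1.10 and 0.117 TPM in pESC-PGCLCs, and Hoxd11 at 0 in both.

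Cluster a, on the other hand, was at 4.95 and 3.96 TPM in ESC-PGCLCs against 1.41 and 1.51 TPM in ESCs, but at 3.57 and 1.98 TPM in pESC-PGCLCs against 1.76 and 2.28 TPM in pESCs, where the libraries overlapped. Cluster b was at 0.752 and 0.746 TPM in pESCs and 2.29 and 1.79 TPM in pESC-PGCLCs, without overlap also after scaling to a common median, while it overlapped between ESCs (1.40 and 0.582 TPM) and ESC-PGCLCs (1.01 and 1.53 TPM). Without Hoxc13, the other 34 genes summed to 3.95 ± 0.53 TPM in ESCs, 4.20 ± 0.51 TPM in pESCs, 11.6 ± 1.8 TPM in ESC-PGCLCs, 12.1 ± 1.7 TPM in pESC-PGCLCs and 19.4 ± 3.7 TPM in PGCs. This sum without Hoxc13 was added after its values were seen. With Hoxc13 included and each library scaled to a common median, the order turned on the parthenogenetic side, with 11.5 and 9.42 TPM in pESC-PGCLCs below 12.4 and 12.6 TPM in pESCs.

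**Figure D5:**
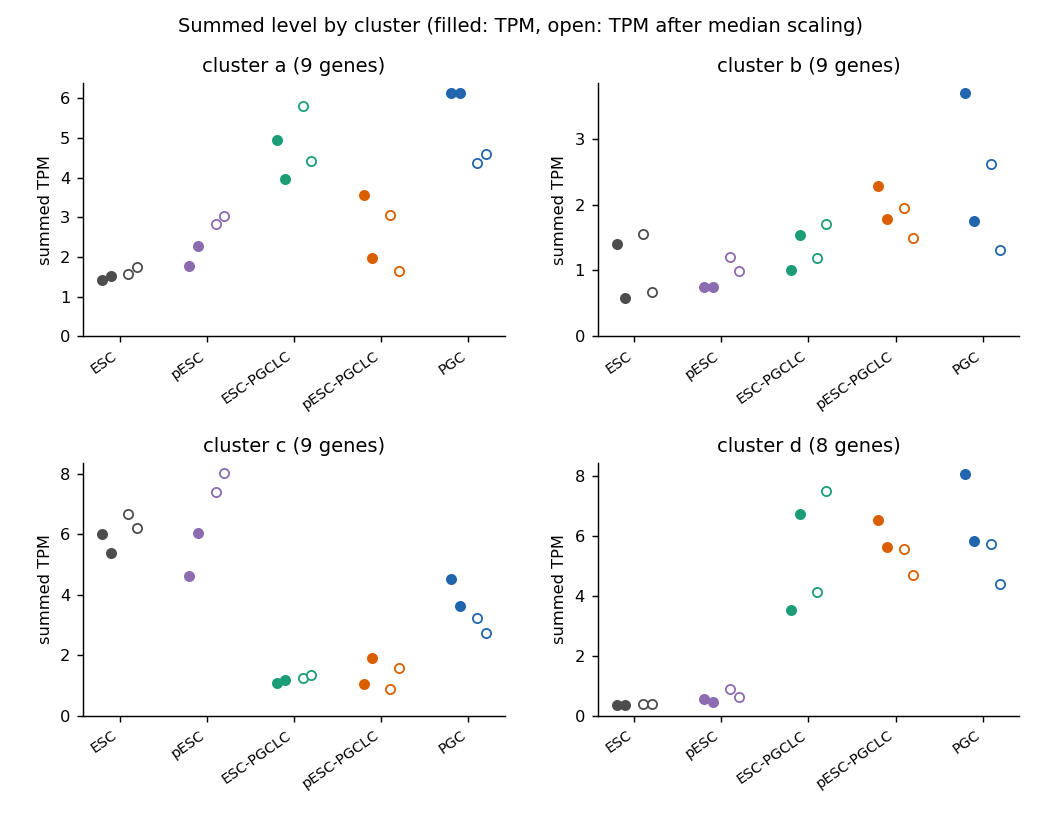
Summed level in TPM (linear axes) of the Hox genes of each cluster; each point is a library, filled for TPM and open for TPM after scaling of the libraries to a common median over genes with at least 1 TPM in all of them. Cluster c is highest in the stem cells and cluster d lowest there under both scalings. Hoxc13 holds most of the cluster c sum in the stem cells.

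By paralog number, group 13, the last of each cluster, held 5.25 of the 8.49 TPM in ESCs and 5.33 of the 8.61 TPM in pESCs, of which Hoxc13 made up 4.55 and 4.40 TPM. In ESC-PGCLCs group 13 held 2.06 TPM and in pESC-PGCLCs 1.28 TPM, with Hoxa13 as its main gene. Group 2, known in hindbrain patterning, was at 0.237 TPM or less in every group of libraries, and group 11 never passed 1 read in a library. Within group 13 the members went apart, since from the stem cells to both kinds of PGCLC Hoxc13 fell, Hoxb13 was at 0.343 to 0.935 TPM before and 0.0964 to 0.334 TPM after, and Hoxa13 was higher in every PGCLC library than in any stem cell library. Within group 8 Hoxd8 rose, Hoxc8 was at 0 to 0.230 TPM before and 0.223 to 0.525 TPM after, and Hoxb8 stayed at or below 0.0446 TPM throughout.

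The next question was whether PGCLCs of maternal origin alone differ from those of ESCs. Limma called 0 of the 30 Hox genes between the 2 kinds of PGCLC, beside 13.4% of all genes, with 4 at an unadjusted p under 0.05 and 2 called by voom (17.5% of all genes). The 2 with an adjusted p under 0.05 by limma, beside 23.8% of all genes, were Hoxa10, a gene of uterine and limb patterning, and Hoxd13. Hoxa10 was at 0.643 and 0.601 TPM in ESC-PGCLCs (10 and 8 reads) and at 0.144 and 0.293 TPM in pESC-PGCLCs (4 and 9 reads), a log2 fold change of -0.42 (limma adjusted p = 0.0318). Hoxd13 had 3 and 4 reads in ESC-PGCLCs and none in pESC-PGCLCs, a log2 fold change of -0.40 (limma adjusted p = 0.0389). Hoxc4 was the reverse, with no read in ESC-PGCLCs and 5 and 7 reads in pESC-PGCLCs, and was called higher by voom and with a pseudocount of 0.1 TPM. ESC-PGCLCs were the shallowest libraries. In the shallower of them 3 reads on Hoxc4 stood for 0.287 TPM, above the 0.259 TPM of pESC-PGCLCs. This floor of 1 library gives no lower bound on the difference. Hoxd10 rested on 1 library, with 17 and 2 reads in pESC-PGCLCs and none in ESC-PGCLCs, and without pESC-PGCLC replicate 2 it would be called (log2 fold change 1.07, limma adjusted p = 0.0233).

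The interaction of origin and differentiation asked whether the change from stem cell to PGCLC depended on origin. It called 0 of the 30, beside 19.1% of all genes, with 5 at an unadjusted p under 0.05 and 2 called by voom (19.7% of all genes). Hoxa5 was 0.66 higher on the log2 scale in ESC-PGCLCs than in ESCs, at 0.560 and 1.18 TPM there, and was at 0.626 and 0.226 TPM in pESC-PGCLCs, below both pESC libraries. The difference was -1.02 (SE 0.314, limma adjusted p = 0.0521). Of the other genes, Hoxd13 differed by -0.61 (SE 0.163, limma adjusted p = 0.0311), with 1 and 1 reads in ESCs, 3 and 4 in ESC-PGCLCs, 7 and 2 in pESCs and none in pESC-PGCLCs.

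PGCs had the highest summed Hox level, 22.4 and 17.4 TPM. Limma called 0 of the 30 against ESC-PGCLCs, beside 13.8% of all genes, with 9 at an unadjusted p under 0.05 and 5 called by voom (17.9% of all genes). Against pESC-PGCLCs it called 0, beside 3.67% of all genes, with 8 at an unadjusted p under 0.05 and 3 called by voom (7.22% of all genes). Both comparisons share the PGC libraries. No share of all genes was counted at the unadjusted p. Hoxa13 was at 2.47 and 2.15 TPM in PGCs (39 and 48 reads), above all 4 PGCLC libraries, with log2 fold changes of 0.69 against ESC-PGCLCs (limma adjusted p = 0.0097) and 0.87 against pESC-PGCLCs (limma adjusted p = 0.0209). Hoxc6, a thoracic gene, had 13 and 12 reads in PGCs (0.846 and 0.552 TPM) and no more than 3 in any other library. Its log2 fold changes were 0.64 (limma adjusted p = 0.00657) and 0.64 (limma adjusted p = 0.0278). Without the fold change minimum 7 Hox genes passed as higher against ESC-PGCLCs, beside 31.1% of all genes in either direction, and 5 against pESC-PGCLCs, beside 8.94%. Hoxc4 and Hoxc9 were among them in both, at 0.79 and 0.46 and at 0.52 and 0.40 on the log2(TPM + 1) scale, with adjusted p between 0.00249 and 0.0475 from limma. These values understate low genes, and by mean TPM Hoxc9 was 3.68-fold and Hoxc4 2.84-fold above pESC-PGCLCs. Against ESC-PGCLCs, Hoxa13, Hoxc4, Hoxc6 and Hoxc9 did not pass after centring of the log2 values (0.09, 0.19, 0.04 and -0.08), nor did Hoxa13 after quantile normalization or scaling. Against pESC-PGCLCs, Hoxa13 passed under all 3 and Hoxc4 and Hoxc9 under none. Hoxc4 was at 0.610 and 0.862 TPM, Hoxc9 at 0.452 and 0.547 TPM, and Hoxc5 at 0.761 and 0.394 TPM in PGCs. Hoxc8 reached 1.33 and 0.743 TPM there. Hoxc13, by contrast, was at 0.446 and 0.540 TPM, so most of the cluster c sum in PGCs came from genes between Hoxc4 and Hoxc9. Hoxd8 was at 4.11 and 2.30 TPM and Hoxd1 at 2.02 and 1.90 TPM, and neither was called against either kind of PGCLC. After scaling to a common median the Hox sum of PGCs, 15.95 and 13.02 TPM, overlapped that of ESC-PGCLCs, 12.4 and 14.97 TPM.

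In the order of levels, Hoxc13 ran from ESCs (4.55 ± 0.43 TPM) and pESCs (4.40 ± 0.80 TPM), whose libraries overlapped, to PGCs (0.493 ± 0.066 TPM), ESC-PGCLCs (0.428 ± 0.24 TPM) and pESC-PGCLCs (0.309 ± 0.23 TPM), in which neighbours overlapped. Hoxd8 ran from PGCs (3.21 ± 1.28 TPM) over pESC-PGCLCs (2.88 ± 0.084 TPM), which they overlapped, and ESC-PGCLCs (2.12 ± 0.93 TPM) to the stem cells. Hoxa13 ran from PGCs (2.31 ± 0.23 TPM) to ESC-PGCLCs (1.05 ± 0.079 TPM), pESC-PGCLCs (0.819 ± 0.19 TPM), pESCs (0.0927 ± 0.0009 TPM) and ESCs (0.022 ± 0.031 TPM), with no overlap between neighbours, though the last 2 groups together held 5 reads.

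Hox proteins bind DNA together with TALE homeodomain partners, of which 8 are given here. Pbx2 and Pbx3 rose and Pbx4 fell in both origins, and Meis1 rose from pESCs. The count was 2 of 8 higher and 1 lower from ESCs and 3 of 8 higher and 1 lower from pESCs, with list medians of 0.22 and 0.44. Here and for the lists below, limma called 15.3% of all genes higher and 14.5% lower from ESCs. From pESCs it called 20.8% higher and 6.80% lower. Pbx3 went from 0.671 ± 0.044 TPM in ESCs to 5.70 ± 0.076 TPM in ESC-PGCLCs (log2 fold change 2.00, SE 0.165, limma adjusted p = 4.19e-05). Pbx4 went from 3.77 and 4.40 TPM in ESCs to 0 in both ESC-PGCLC libraries. Pbx2, Pbx3 and Pbx4 kept these calls after both kinds of centring and quantile normalization, and Meis1 lost its call in 2 of these 3 settings. Against each kind of PGCLC, 1 cofactor rose in PGCs, beside 12.0% of all genes against ESC-PGCLCs and 2.07% against pESC-PGCLCs. It was Pbx2, at 21.4 and 18.7 TPM. It was not called against ESC-PGCLCs after either kind of centring, nor against pESC-PGCLCs without pESC-PGCLC replicate 1 or 2.

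Of 11 upstream activators of Hox genes, 10 could be tested. From ESCs 0 rose and 1 fell, and from pESCs 3 rose and 1 fell. The one that fell in both was Cdx1, from 3.60 and 4.57 TPM in ESCs to 1.80 and 0.281 TPM in ESC-PGCLCs (log2 fold change -1.42, limma adjusted p = 0.00907). Cdx4 was listed at 0 in all 10 libraries. Those that rose from pESCs were Gdf11, a signal for the posterior axis, from 0.280 and 0.795 to 4.86 and 4.47 TPM, Aldh1a2, which makes retinoic acid, and Wnt3. Aldh1a2 and Wnt3 lost the call after both kinds of centring and quantile normalization. Of the 6 ParaHox genes, relatives of the Hox clusters that include the 3 Cdx genes, 2 could be tested and 1, Cdx1, fell in each origin.

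Among Polycomb genes, which hold Hox clusters silent, 4 of 13 rose and 1 fell from ESCs, and 6 of 13 rose and 1 fell from pESCs. The list medians were 0.37 and 0.86, where those of all genes were 0.05 and 0.22. Centring of the log2 values moved the medians of all genes to 0.06 and -0.51. Bmi1, a subunit of the ring finger complex PRC1, rose in both, by 3.70 and 3.15 on the log2 scale. Of 9 trithorax genes, which keep Hox genes active, 1 rose and 2 fell from ESCs and 3 rose and 0 fell from pESCs, with medians of -0.21 and 0.56. Of 12 non-coding genes of the clusters, 8 could be tested. Halr1, a long non-coding RNA gene of cluster a, was the 1 that fell from ESCs, from 4.20 and 4.12 TPM to 0.643 and 0.751 TPM. From pESCs it went from 3.60 and 4.94 TPM to 1.44 and 3.25 TPM and was called lower after quantile normalization and after either centring (limma adjusted p = 0.0833 without them). Hotairm1, also a non-coding gene of cluster a, was at 1.23 to 2.22 TPM in the stem cells and 0.479 to 1.15 TPM in PGCLCs. Of 10 genes that flank the clusters, 1 rose and 1 fell from ESCs and 3 rose from pESCs.

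The Hox genes called higher in PGCLCs were measured beside the gonadal and blood transcripts described above. In the change to PGCLCs, 4 of 10 tested gonadal and mesonephric markers rose from ESCs and 6 of 10 from pESCs, with none lower. Of all genes, limma called 15.3% higher from ESCs and 20.8% from pESCs. The 10 fibroblast markers summed to 0.294 to 0.559 TPM in the stem cells, 4.18 to 4.79 TPM in ESC-PGCLCs, 8.70 to 10.7 TPM in pESC-PGCLCs and 11.2 to 12.6 TPM in PGCs. Wt1, which marks the gonadal ridge and mesonephros, was at 7.16 and 8.05 TPM in ESC-PGCLCs and at 26.2 and 22.4 TPM in PGCs, above every Hox gene in the same libraries. Of 6 tested blood markers, 3 rose and 3 were not called in each origin. The 8 markers of early and posterior mesoderm summed to 0.902 to 2.38 TPM in the stem cells and 4.46 to 6.60 TPM in PGCLCs. The part of these cells in the Hox levels was not tested.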

How the data were processed

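Mouse RNA-seq in 5 groups of 2 libraries was used. Alignment to mm10 was by Hisat2 and counting by Feature-counts, and the authors deposited TPM for 36066 symbols. The submitters' processing notes also name Bowtie2, RSEM, DESeq2 and R 3.4.2. The methods and the labels differ on library preparation, and neither states a strand-specific kit. All columns of values were used. The 35 Hox genes, the gene lists and the tests were chosen with earlier results of these data known. Hox genes may be named as members. The values of 1 Hox gene, which stays in all sums and counts, and 1 listed cofactor, which was taken out of its list, are not reported here. Full statistics were given for the called members with the largest changes, no overlap between libraries and a mean of at least 1 TPM, and levels for genes among the 5 highest per group. Statistics for Hoxa5, Hoxa10, Hoxc4, Hoxc6, Hoxc9 and Hoxd13 were added after their values were seen. Genes of other lists were named when called or as markers, and Cdx4, Hotairm1, Meis1 and Wt1 as list members with stated values.

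TPM multiplied by the exon length of GENCODE M21 (GRCm38) and a factor per library gave whole reads for 95.1% to 95.4% of the values above 0, within 0.05 of a read, and these reads gave depth, floors of 3 reads and exact intervals. Hoxd4 fitted another exon length, and its reads were set from its lowest value as 1 read. Genes with at least 0.1 TPM in 2 libraries were fitted as log2(TPM + 1) with limma 3.58.1 in R 4.3.3, with a mean per group (5 residual and 2.81 prior degrees of freedom, all 10 libraries), after a test on simulated data. Adjustment was by Benjamini-Hochberg over all genes of a comparison. Tried beside this were no filter, a filter of 1 TPM, a pseudocount of 0.1, the compared groups alone, quantile normalization, centring of log2 values on the median over 9024 genes that reached 1 TPM everywhere, a replicate block, other call rules and leaving out each library. After the data had been seen, 3 more were added, voom on the reads, genes of at least 200 nt, and TPM scaled to that median before the log. Upstream windows of 250 bases came from RefSeq on GRCm38.p6. Tables were made with pandas 2.3.3 and numpy 2.4.6 in Python 3.11.15, and figures with matplotlib 3.10.9.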

Additional observations from a re-analysis of the deposited data

Results flagged for a closer look

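For 2 Hox genes the libraries of the 2 origins moved in opposite directions from stem cell to PGCLC. The share of all genes that did so was not counted. Over all genes, 29.7% lay higher and 25.3% lower without overlap from ESCs, and 38.8% and 14.98% from pESCs. The interaction of origin and differentiation was -1.021 on the log2 scale for Hoxa5 (adjusted p = 0.0521 from limma), with both ESC-PGCLC libraries above both ESC libraries and both pESC-PGCLC libraries below both pESC libraries. This Hoxa5 difference was called after quantile normalization (-1.34), after scaling to a common median (-1.42) and after centring of the log2 values (-1.77). It was also called with a pseudocount of 0.1 TPM (-2.70), by voom (-3.46), over genes of at least 200 nt and at an unadjusted p with a 2-fold change. It was not called with no filter, in the compared groups alone, with a replicate block or without a fold change minimum. Without ESC-PGCLC replicate 1 the difference was -1.26. For Hoxd13 the interaction was -0.6137 (adjusted p = 0.0311 from limma), which is under 2-fold on this scale. It was called with a pseudocount of 0.1 TPM (-3.11), by voom (-6.01) and after centring of the log2 values (-1.36). After quantile normalization or scaling to a common median it was not called. Hoxd13 never held more than 7 reads in a library, and Hoxa5 held 2 to 16.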

How the results depend on the processing

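In the differentiation from ESCs, 13 Hox genes were called with a pseudocount of 0.1 TPM, 12 without a fold change minimum and 17 by voom, against 4 as reported, and from pESCs 13, 8 and 14 against 4. Over all genes the same settings called 44.1%, 46.4% and 45.4% from ESCs and 41.4%, 44.6% and 41.8% from pESCs. Between the 2 kinds of PGCLC each of these 3 settings called 2, against 0 as reported, beside 19.5%, 23.8% and 17.5% of all genes. Against ESC-PGCLCs, PGCs had 5, 7 and 5 such genes, beside 22.5%, 31.1% and 17.9%, and against pESC-PGCLCs 5 without a fold change minimum and 3 by voom, beside 8.94% and 7.22%. The interaction called 3 with a pseudocount of 0.1 TPM, beside 21.8% of all genes. Without a fold change minimum it called 1, beside 22.9%, and by voom 2, beside 19.7%. It called 1 after quantile normalization and 4 after centring of the log2 values, beside 3871 and 5789 of 27259 genes. After scaling to a common median it called 1, beside 3921. At an unadjusted p with a 2-fold change it called 1, beside 6082. Over genes of at least 200 nt it called 1, beside 5114 of 25745. With libraries left out in turn, Hoxd10 had a log2 fold change of 1.07 between the PGCLCs without pESC-PGCLC replicate 2. For PGCs against ESC-PGCLCs it was 1.14 without PGC replicate 2. The interaction for Hoxa5 was -1.26 without ESC-PGCLC replicate 1. From ESCs, Hoxa13 was at 0.97 without ESC replicate 2 and 0.96 without ESC-PGCLC replicate 1. From pESCs, Hoxb7 was at 1.00 without pESC replicate 1 and 0.82 without pESC-PGCLC replicate 1. Counts of called genes are not given for these fits, since each left 1 library in a group. A group with 1 library left was assumed to vary like the others. Centring of the log2 values, which moves genes listed at 0 too, turned the sign of Hoxc12 (0.17) and Hoxb7 (0.17) between pESCs and ESCs and of the interaction for Hoxb7 (-0.0104), Hoxd10 (-0.13) and Hoxa7 (-0.23), none of them called. Across 22 alternatives each, the log2 fold change of Hoxc13 lay between -3.44 and -1.79 from ESCs and between -4.20 and -1.87 from pESCs, and that of Hoxd8 between 1.18 and 4.23 and between 1.14 and 5.43, all called. Replicate numbers recur in all groups, and with replicate as a block the count was 4 from ESCs, 4 from pESCs and 0 in each other comparison, as without it. The share of all genes called with the block is not given here. The deviations of same-numbered libraries had correlations of -0.0395 to 0.171 between groups, over 0.1 in 1 of 10 pairs of groups. Such values show no strong shared deviation. They cannot tell whether same-numbered libraries were made together, which the labels do not say. Depth limits most Hox genes, with 1 to 465 reads per gene over all libraries.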
